A study of Mus musculus with 9 samples.

Results

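Granule exocytosis and vesicle trafficking genes were examined in mouse bone-marrow-derived basophils (BMBAs). The set held 38 genes named by symbol, out of 35673 symbols in the count table: Rab GTPases and their effectors, priming factors, SNARE proteins, granule biogenesis genes, dense-core vesicle genes, and proteins of the granule membrane and matrix. The genes were listed with earlier results of these libraries in view, so their counts and fold changes are a description of the set and support nothing beyond it. All 38 symbols were found, and 37 passed the filter on low counts.

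The basophils came from C57BL/6J wild-type bone marrow grown for 7 days in 0.3 ng/mL IL-3 and enriched on magnetic beads for the surface marker CD49b. For each library, 10000 cells were treated for 4 h, and the RNA was then sequenced in bulk. The resting group received PBS with the solvent DMSO, the stimulated group received 10 ng/mL IL-3 plus 10 ng/mL IL-33 with DMSO, and the difamilast group received both cytokines together with difamilast at 3 µM, which inhibits the cAMP-degrading enzyme phosphodiesterase 4 (PDE4). Each group had 3 libraries. IL-3 was present in the culture that preceded every group, so the resting cells were not free of earlier cytokine exposure, and no group received difamilast without cytokines. The labels do not say whether the libraries of a group came from separate cultures, so p-values measure the spread between these libraries, which may be technical. Library totals were 6261446 to 14795353 reads in resting, 11798711 to 38098584 in stimulated and 24812305 to 30299575 in difamilast cells. All 10 basophil markers were detected, with a summed level of 6212 to 7121 CPM, the reads on a gene per 1000000 reads of the library after TMM scaling, in resting, 10390 to 11080 in stimulated and 11880 to 12520 in difamilast libraries. Single markers went both ways in the test described below. With cytokines 6 were higher and 1 lower than at rest, and with difamilast 1 was higher and 2 lower than in stimulated cells.

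Basophils store histamine and proteoglycan-bound mediators in cytoplasmic granules and release them when the granule membrane fuses with the plasma membrane. Rab27 and Rab3 GTPases, with their effectors, bring the granule to the membrane, Munc13 and Munc18 family proteins prepare the fusion machinery, and SNARE proteins on the vesicle and target membranes drive fusion. The same protein families also sort cargo at the Golgi and endosomes, and inherited loss of several of them (RAB27A, UNC13D, STXBP2, STX11, LYST, AP3B1) causes defects of granule secretion in people. RNA levels were measured here, and granule release was not.

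IL-3 plus IL-33 went with lower RNA for the granule-docking Rabs (Rab27a, Rab27b, Rab3a, Rab3d, Rab37), the Rab27 effector Sytl2, the priming factor Unc13d and the granule-size regulator Lyst, and with higher RNA for serglycin (Srgn), the core protein of granule proteoglycans, and for the SNAREs Stx6 and Snap23. In all, 21 of 37 members passed the test between stimulated and resting cells, 7 higher and 14 lower, where 31.7% of all 21341 tested genes passed, 15.3% higher and 16.4% lower. A member is called here when edgeR's quasi-likelihood test gave an adjusted p (Benjamini-Hochberg, over all tested genes) under 0.05. Of the 21, 10 changed at least 2-fold, where 13.8% of tested genes were called with such a change. The members' median log2 fold change was -0.31, against 0.06 over all tested genes. In 24 members the 3 stimulated libraries did not overlap the 3 resting ones, which held for 43.7% of all tested genes. In bulk RNA, fewer cells of a type and less RNA per cell cannot be told apart. Markers of other cells moved beside these genes: 4 of 7 monocyte and macrophage markers were called lower, with a summed level of 5497 to 6892 CPM in resting and 4298 to 4540 in stimulated libraries, and 2 of 6 megakaryocyte and platelet markers were called lower, with 471.6 to 667.2 against 292.3 to 424.1 CPM. None of the markers on either list was at 0. Of 6 tested mast cell markers, 2 were called higher and 1 lower. The mast cell list had a summed level of 944.5 to 1334 CPM in resting and 1737 to 1873 in stimulated libraries. Of its 7 markers, Mcpt4 and Mrgprb2 had means under 1 CPM in both groups, and Tpsab1 did so at rest. Mrgprb2 had 0 reads in the stimulated libraries, so the sum comes from the other markers of the list. The part of these cells in the members' values was not tested.

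With difamilast, 5 of 37 members were called against stimulated cells, and each was higher: Ptprn, Hid1, Vamp4, Rab27b and Lamp2. The background was 3.44% of tested genes called, 2.21% higher and 1.24% lower, and 1.64% to 7.58% of genes were called when 1 library was left out. Ptprn, Hid1 and Vamp4 changed at least 2-fold, which with a call held for 1.1% of tested genes. The members' median log2 fold change was 0.04, against 0.00 over all tested genes. In 16 members the difamilast and stimulated libraries did not overlap, against 24.8% of tested genes.

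Between difamilast and resting cells 23 of 37 members were called, 10 higher and 13 lower, where 32.8% of tested genes were called. Of these members 14 changed at least 2-fold, where 14.4% of tested genes were called with such a change. The groups did not overlap in 25 members, against 42.9% of tested genes. This comparison shares its libraries with the other two, so the sets of calls are not independent of each other, and values are given side by side. By calls, 11 members were lower than resting in both cytokine-treated groups and not called between them, and 6 were higher than resting in both. Rab27b and Vamp4 were called lower with cytokines and higher with difamilast. Of the rest, 11 members were called in none of the 3 comparisons, with adjusted p of at least 0.0588.

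**Figure D1:**
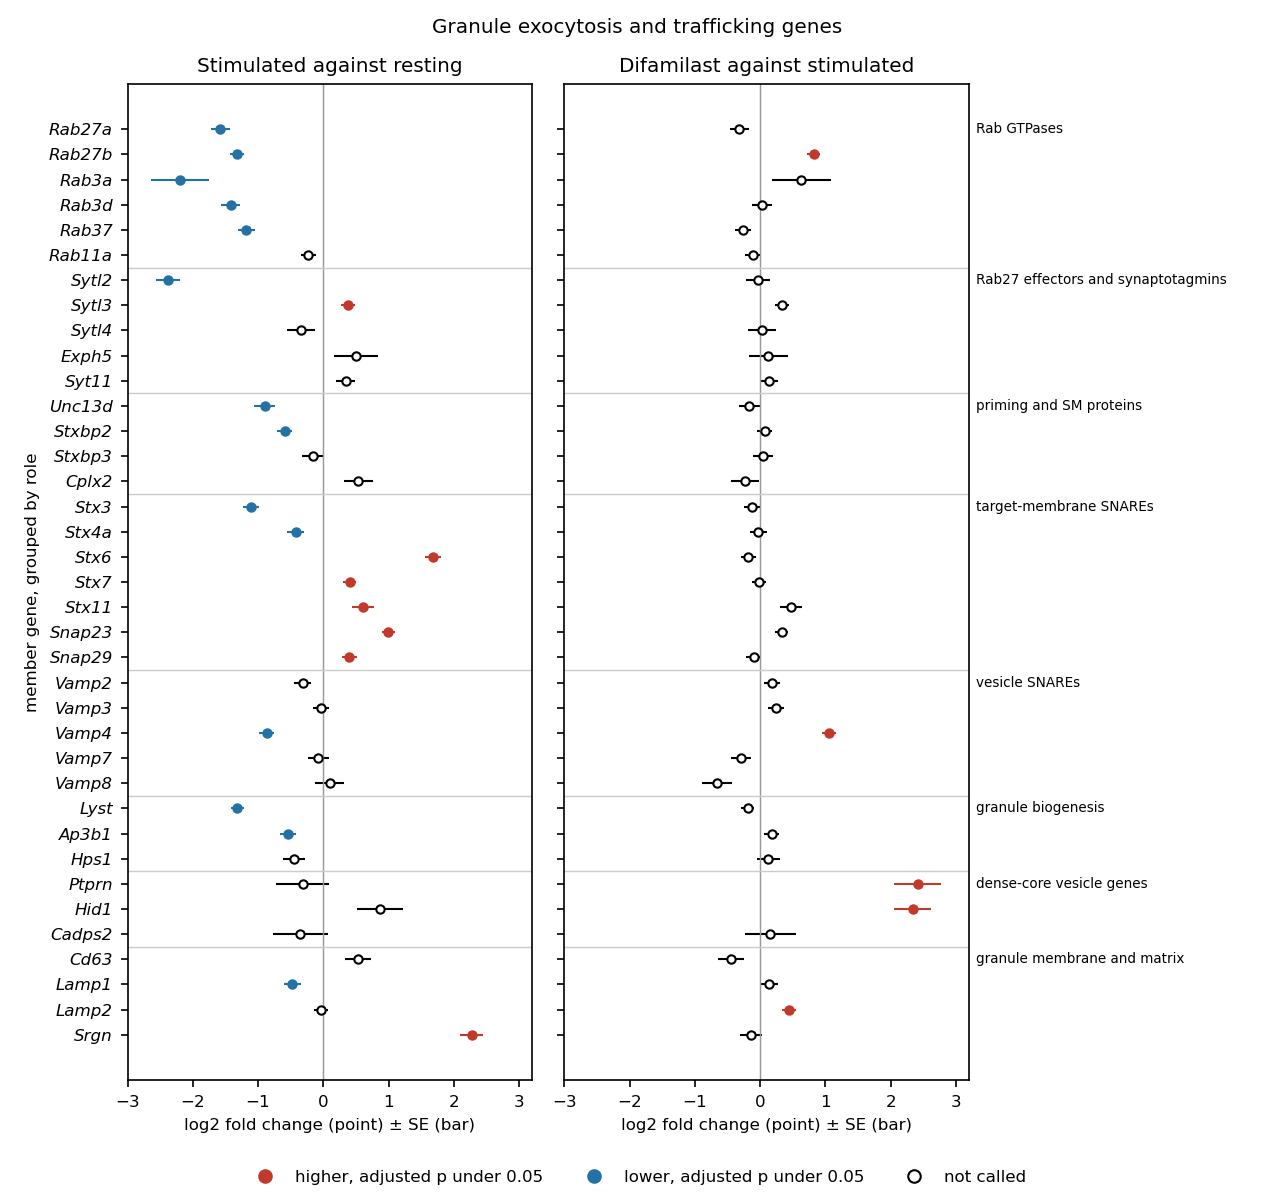
Log2 fold change (point, x axis) with its standard error (bar) for the 37 tested members, grouped by role on the y axis, for stimulated against resting cells on the left and difamilast against stimulated cells on the right; red is called higher, blue is called lower and open points are not called. The Rab GTPases lie to the left of 0 on the left panel, and on the right panel the 5 red points are Rab27b, Vamp4, Ptprn, Hid1 and Lamp2.

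Promoter sequences are shown for the 3 members called with difamilast that the RefSeq promoter table holds, and for Stxbp3, which carries the longest match of the motif searched. A cAMP response element, the site bound by CREB-family factors, is the palindrome TGACGTCA, and its shorter form TGACG was searched on both strands in the 250 bases before each start (GRCm38.p6). Capitals mark matches of TGACG, which read CGTCA on the other strand. The Ptprn window, chr1:75264209-75264458 on the minus strand, held 2 matches, and the window of a second Ptprn start held none. Vamp4, chr1:162570265-162570514 on the plus strand, held 1 match, and its second start held none. Lamp2, chrX:38456461-38456710 on the minus strand, held none. Stxbp3, chr3:108840503-108840752 on the minus strand, held the full palindrome, in which the shorter form overlaps itself on the 2 strands.
Ptprn: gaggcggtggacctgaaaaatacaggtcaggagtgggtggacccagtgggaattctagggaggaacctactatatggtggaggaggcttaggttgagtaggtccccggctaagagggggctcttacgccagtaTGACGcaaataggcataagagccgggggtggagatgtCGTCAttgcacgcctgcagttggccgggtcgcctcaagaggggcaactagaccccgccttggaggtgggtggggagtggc
Vamp4: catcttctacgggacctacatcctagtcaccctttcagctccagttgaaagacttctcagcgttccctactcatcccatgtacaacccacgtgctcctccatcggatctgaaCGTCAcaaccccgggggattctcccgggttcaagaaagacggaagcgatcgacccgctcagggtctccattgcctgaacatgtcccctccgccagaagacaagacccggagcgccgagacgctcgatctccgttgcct
Lamp2: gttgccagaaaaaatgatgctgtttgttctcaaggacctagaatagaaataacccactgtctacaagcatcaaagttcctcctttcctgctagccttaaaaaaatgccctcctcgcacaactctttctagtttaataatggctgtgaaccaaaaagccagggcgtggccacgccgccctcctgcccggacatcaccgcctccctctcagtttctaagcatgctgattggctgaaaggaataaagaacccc
Stxbp3: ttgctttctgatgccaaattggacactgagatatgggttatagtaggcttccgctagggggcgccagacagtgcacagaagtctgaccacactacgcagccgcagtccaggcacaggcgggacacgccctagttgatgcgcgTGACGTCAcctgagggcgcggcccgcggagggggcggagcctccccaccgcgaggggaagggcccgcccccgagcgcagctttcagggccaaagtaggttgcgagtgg

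Over the set, 30 members had 37 promoter windows, and TGACG occurred in 14 of them (37.8%), against 23.6% of 16231 windows of tested genes and 17.8% of all 32851 windows in the table. The full TGACGTCA occurred in 1 of 37, against 2.23% of the windows of tested genes. A STAT-type palindrome, TTCNNNGAA, the kind of site used by the factors downstream of IL-3, was in 5 of 37 windows, against 6.15% of the windows of tested genes. A match describes letters in a window and is not a binding site. Stxbp3, with the full palindrome, had 15.4, 22.1 and 22.8 CPM in stimulated and 20.6, 19.4 and 22.9 CPM in difamilast libraries (log2 fold change 0.04 ± 0.16 SE, adjusted p = 0.939).

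Rab GTPases are membrane switches, and 5 of the 6 in the set were called lower in stimulated than in resting cells, where 16.4% of all tested genes were called lower. The recycling-endosome Rab11a was not called. Rab27a, which tethers secretory granules to cortical actin and the plasma membrane, had 38.9, 43.7 and 43.7 CPM in resting, 16.5, 12.1 and 14.2 CPM in stimulated and 11.2, 12.6 and 10.1 CPM in difamilast libraries. Every resting library was above every cytokine-treated one, and the stimulated and difamilast libraries overlapped. Rab27a was 2.98-fold lower in stimulated than in resting cells (log2 fold change -1.58 ± 0.15, adjusted p = 9.16e-07). Its difference between difamilast and stimulated cells was -0.32 ± 0.15 on the log2 scale, with an adjusted p of 0.338. The gene lies at chr9:73044854-73097629 and shares exon sequence on its own strand with the predicted gene Gm27186, whose mean was 0.406 CPM in resting cells and below that in the other groups.

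Rab27b, the paralogue that acts with Rab27a in mast-cell and platelet granules, followed another course with difamilast. Its resting libraries held 113.8, 111.2 and 119.3 CPM, its stimulated libraries 42.5, 43.2 and 51.4 CPM, and its difamilast libraries 83.0, 80.4 and 78.7 CPM. The 3 groups did not overlap, and difamilast lay between the other two. Rab27b was 2.5-fold lower with cytokines (-1.32 ± 0.11, adjusted p = 1.59e-07), 1.76-fold higher with difamilast than with cytokines alone (0.82 ± 0.11, adjusted p = 0.000255), and 1.42-fold lower with difamilast than at rest (-0.51 ± 0.10, adjusted p = 0.00164). The number of Rab27b reads per Rab27a read, which is not corrected for transcript length, was 2.93, 2.54 and 2.73 in resting, 2.58, 3.56 and 3.63 in stimulated and 7.42, 6.38 and 7.79 in difamilast libraries. The difamilast libraries thus held more Rab27b per Rab27a than any library of the other groups. All 3 Rab27b calls held under each of the 17 alternative settings, with an adjusted p of at most 0.0047 for difamilast against stimulated cells.

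Rab3d, a Rab of regulated secretory granules, had 28.4, 24.1 and 24.7 CPM at rest, 8.66, 10.9 and 9.08 with cytokines and 9.56, 10.4 and 9.48 with difamilast. It was 2.67-fold lower in stimulated cells (-1.42 ± 0.15, adjusted p = 3.25e-06), and the 2 cytokine-treated groups overlapped. Rab37, a Rab of mast-cell granules, had 65.7, 51.7 and 57.5 CPM at rest, 26.1, 24.2 and 27.1 with cytokines and 22.4, 21.0 and 20.8 with difamilast. It fell 2.26-fold with cytokines (-1.18 ± 0.12, adjusted p = 2.99e-06), and all its difamilast libraries lay below all its stimulated ones without a call (-0.27 ± 0.12, adjusted p = 0.328).

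Rab3a, best known from synaptic vesicles, was at a low level, with 46, 57 and 16 reads in the resting, 5, 16 and 26 in the stimulated and 11, 41 and 21 in the difamilast libraries. In CPM these were 3.22, 3.14 and 2.03, then 0.476, 0.475 and 0.843, then 0.397, 1.5 and 0.996. The resting libraries stood above the rest, and Rab3a was 4.58-fold lower in stimulated cells (-2.19 ± 0.44, adjusted p = 0.00131). Rab3a overlaps an exon of Mpv17l2 on the other strand, whose mean was 22.8 CPM at rest, 21.4 with cytokines and 18.5 with difamilast, and whether the counting used strand is not given in the sources used here. Rab11a, which directs recycling endosomes, had 198 to 266 CPM at rest, 190 to 206 with cytokines and 168 to 193 with difamilast. It was not called between stimulated and resting cells (-0.23 ± 0.11, adjusted p = 0.138, and 0.00521 without resting library 1) and was called lower with difamilast than at rest (-0.35 ± 0.11, adjusted p = 0.029). That last call was lost without resting library 2 (adjusted p = 0.0937), difamilast library 1 (0.123) or difamilast library 2 (0.0803), and when the trend of the values with transcript length was removed (0.071). It was also lost in a fit of the 2 groups alone (0.0744) and with reads thinned to the shallowest library (0.0695).

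**Figure D2:**
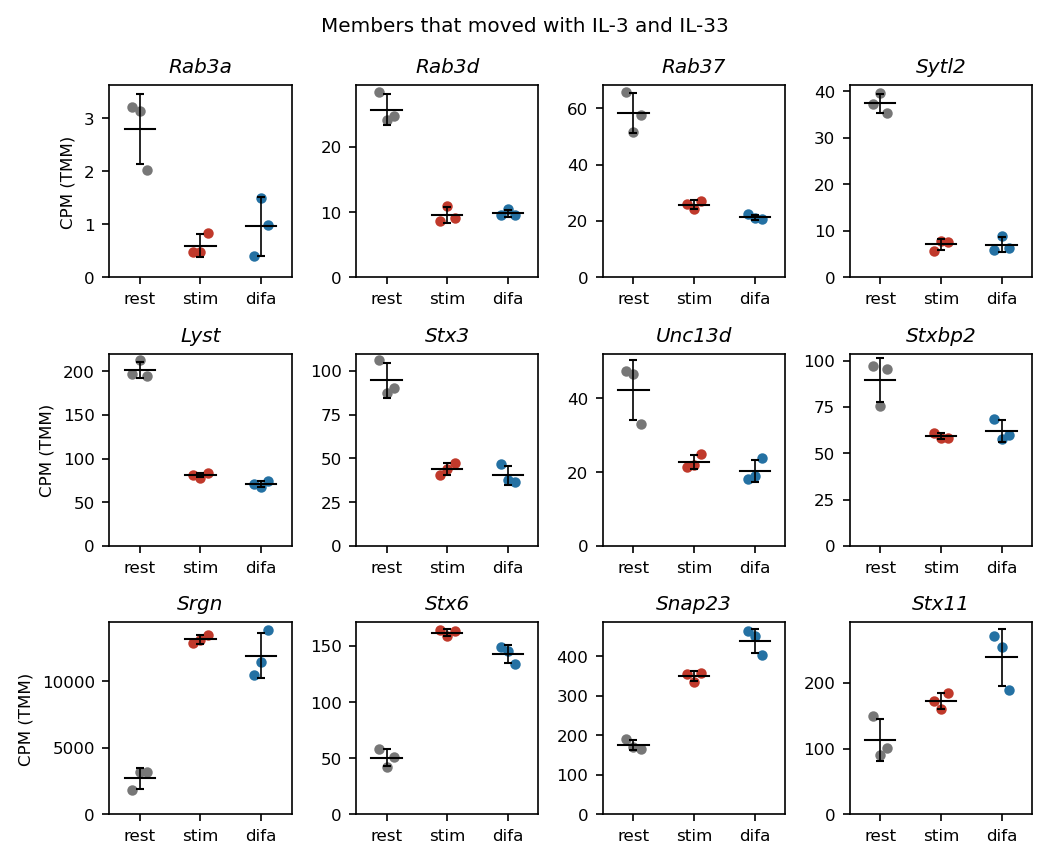
Level of 12 members in each library (points, CPM after TMM scaling, y axis from 0) for resting (rest), stimulated (stim) and difamilast (difa) cells; the horizontal line is the mean and the bar is 1 SD over 3 libraries. Rab3a, Rab3d, Rab37, Sytl2, Lyst, Stx3, Unc13d and Stxbp2 were highest at rest, and Srgn, Stx6, Snap23 and Stx11 were higher in both cytokine-treated groups.

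Rab27 acts through effectors that bind it on the granule. Sytl2, a synaptotagmin-like protein that links Rab27 to the plasma membrane, had 37.3, 39.6 and 35.5 CPM at rest, 5.61, 7.93 and 7.72 with cytokines and 5.95, 8.84 and 6.40 with difamilast. The resting libraries were far above both other groups, which overlapped. Sytl2 was 5.19-fold lower in stimulated cells (-2.38 ± 0.18, adjusted p = 8.51e-08), and its difamilast against stimulated difference was -0.03 ± 0.18.

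Its relative Sytl3 went the other way, with 237 to 288 CPM at rest, 346 to 357 with cytokines and 396 to 466 with difamilast. The 3 groups did not overlap. Sytl3 was called higher in stimulated than in resting cells (0.39 ± 0.11, adjusted p = 0.012), a call lost without stimulated library 1 (adjusted p = 0.066), and was higher with difamilast than at rest (0.71 ± 0.11, adjusted p = 0.000107). Its difference between difamilast and stimulated cells (0.33 ± 0.11) had an adjusted p of 0.128, which fell to 0.00809 without resting library 1 and to 0.0426 without difamilast library 3. That p was 0.0359 with DESeq2 and 0.0197 in a fit of the 2 groups alone. Sytl3 overlaps an exon of Ezr on the other strand, whose mean was 75.0 CPM at rest, 153 with cytokines and 125 with difamilast.

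The other effectors moved less or not beyond the test. Sytl4, known for tying granules to syntaxins, had 4.18 to 6.71 CPM at rest and 3.52 to 4.39 with cytokines (-0.34 ± 0.22, adjusted p = 0.265). Exph5, a further Rab27 effector, ranged from 1.21 to 2.74 CPM over 9 libraries. Syt11, a synaptotagmin that does not sense calcium, had 39.8 to 40.1 CPM at rest, 48.4 to 53.9 with cytokines and 44.3 to 69.4 with difamilast. It was called only between difamilast and resting cells (0.47 ± 0.14, adjusted p = 0.0195), and that call was lost without resting library 2 (adjusted p = 0.0671), resting library 3 (0.0646) or difamilast library 3 (0.0942).

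Among the proteins that prepare SNAREs for fusion, 2 of 4 were called lower with cytokines, where 16.4% of all tested genes were called lower. Unc13d, the Munc13-family priming factor of haematopoietic granules and itself a Rab27 effector, had 47.3, 46.6 and 32.9 CPM at rest, 21.3, 21.9 and 25.0 with cytokines and 18.2, 19.0 and 23.9 with difamilast. Resting libraries were above all others, and the remaining groups overlapped. Unc13d was 1.86-fold lower in stimulated than in resting cells (-0.90 ± 0.16, adjusted p = 0.00048) and 2.09-fold lower with difamilast than at rest (-1.06 ± 0.16, adjusted p = 0.000106). Stxbp2, the Munc18-family partner of Stx11, had 97.0, 75.6 and 95.5 CPM at rest, 60.9, 58.5 and 58.3 with cytokines and 68.7, 57.6 and 59.7 with difamilast. Its resting libraries were again the highest, and the fold was smaller, 1.51 (-0.59 ± 0.12, adjusted p = 0.00138). Its difference between difamilast and stimulated cells was 0.07 ± 0.12 (adjusted p = 0.86). Stxbp3, a Munc18-family partner of Stx4, had 19.6 to 24.5 CPM at rest and was not called in any comparison. Cplx2, a complexin that binds assembled SNAREs, had 9.93 to 18.1 CPM at rest, 17.6 to 24.7 with cytokines and 15.7 to 23.4 with difamilast, and its stimulated against resting difference (0.54 ± 0.22) had an adjusted p of 0.0839.

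All 7 target-membrane SNAREs were called between stimulated and resting cells, 5 higher and 2 lower, where 15.3% of all tested genes were called higher and 16.4% lower. Between difamilast and stimulated cells each of the 7 had an adjusted p of at least 0.0986. Stx3, a plasma-membrane and granule syntaxin, had 106, 87.6 and 90.05 CPM at rest, 40.3, 43.7 and 47.4 with cytokines and 46.6, 37.9 and 36.6 with difamilast. It fell 2.15-fold with cytokines (-1.11 ± 0.13, adjusted p = 7.1e-06), with no overlap between resting libraries and the rest. Stx4a, the mouse symbol for the plasma-membrane syntaxin Stx4, had 58.7 to 85.7 CPM at rest and 50.5 to 57.7 with cytokines. It was called lower (-0.42 ± 0.13, adjusted p = 0.0214) and was the called member nearest the threshold in that comparison. The Stx4a call was lost without resting library 3 (adjusted p = 0.0699) or stimulated library 2 (0.103).

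The SNAREs that were higher with cytokines serve the Golgi, endosomes and plasma membrane. Stx6, a syntaxin of the trans-Golgi network and early endosomes, had 58.3, 42.4 and 51.2 CPM at rest, 164, 159 and 163 with cytokines and 149, 146 and 134 with difamilast. All 3 groups were separate, with stimulated libraries highest. Stx6 was 3.2-fold higher in stimulated than in resting cells (1.68 ± 0.12, adjusted p = 4.05e-08), and its difamilast against stimulated difference, -0.18 ± 0.11, was not called (adjusted p = 0.517). Snap23, the plasma-membrane SNARE of mast-cell exocytosis, had 190, 169 and 165 CPM at rest, 356, 335 and 357 with cytokines and 462, 449 and 403 with difamilast. The 3 groups did not overlap, and the order was resting, stimulated, difamilast. Snap23 was higher by 1.00 ± 0.10 on the log2 scale in stimulated cells (adjusted p = 1.81e-06) and by 1.33 ± 0.10 with difamilast against rest (adjusted p = 8.14e-08). Between difamilast and stimulated cells it differed by 0.33 ± 0.10 with an adjusted p of 0.0986, the uncalled member nearest the threshold there. That p fell to 0.00685 without resting library 1, to 0.0423 without difamilast library 3, to 0.0277 with DESeq2 and to 0.0452 with limma-voom.

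Stx11, the syntaxin needed for cytotoxic granule release in lymphocytes, had 149, 90.4 and 100 CPM at rest, 173, 161 and 184 with cytokines and 271, 255 and 190 with difamilast. The groups followed each other without overlap. Its stimulated against resting call (0.61 ± 0.17, adjusted p = 0.0134) was lost without resting library 2 (adjusted p = 0.0831), resting library 3 (0.075), stimulated library 1 (0.0565) or stimulated library 3 (0.0523). With difamilast Stx11 was 2.10-fold higher than at rest (1.07 ± 0.17, adjusted p = 0.000199), and against stimulated cells it differed by 0.47 ± 0.17 (adjusted p = 0.189, and 0.0175 without resting library 1). Stx7, a late-endosomal syntaxin, was called higher with cytokines (0.40 ± 0.10, adjusted p = 0.00764), with 65.9 to 78.0 CPM at rest and 90.6 to 96.1 with cytokines. That call was lost without resting library 3 (adjusted p = 0.0533) or stimulated library 1 (0.0568). Snap29, a SNARE of endosomal and autophagic fusion, was called higher with cytokines (0.40 ± 0.12, adjusted p = 0.0163), and lost the call without resting library 2 (adjusted p = 0.0696) or stimulated library 2 (0.102). Snap29 overlaps an exon of Pi4ka on the other strand, whose mean was 39.2 CPM at rest and 47.7 with cytokines.

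Of the 5 vesicle SNAREs, Vamp4 was the only 1 called in any comparison. Vamp4 sorts at the trans-Golgi network and on immature secretory granules, and lies at chr1:162570515-162599084. It had 79.2, 87.8 and 98.5 CPM at rest, 48.0, 49.2 and 48.0 with cytokines and 104.7, 105.4 and 92.5 with difamilast. The stimulated libraries lay below all others, and the resting and difamilast libraries overlapped. Vamp4 was 1.82-fold lower with cytokines than at rest (-0.87 ± 0.11, adjusted p = 2.12e-05) and 2.08-fold higher with difamilast than with cytokines alone (1.06 ± 0.11, adjusted p = 3.17e-05). Between difamilast and resting cells it differed by 0.19 ± 0.11 (adjusted p = 0.197). Against stimulated cells the call held under all 17 alternative settings, with log2 fold changes of 1.03 to 1.12. Both calls rest on the same 3 stimulated libraries.

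Vamp8, the vesicle SNARE of regulated secretion in mast cells and platelets, had 52.0, 102 and 73.6 CPM at rest, 82.4, 91.5 and 70.1 with cytokines and 39.4, 45.5 and 69.5 with difamilast. The difamilast libraries were all below the stimulated ones, with libraries 70.1 and 69.5 CPM nearest each other, and the difference was not called (-0.66 ± 0.22, adjusted p = 0.148). The adjusted p was 0.0233 without difamilast library 3. Between difamilast and resting cells Vamp8 was not called (-0.56, adjusted p = 0.0689), but it was called lower without that library (-0.83, adjusted p = 0.0112). The same call was gained with DESeq2 (adjusted p = 0.0409), RLE scaling (0.0476), replicate number blocked (0.0472) or no filter on low counts (0.000365). In the same libraries, 836 genes with transcripts under 1000 bases deviated by medians of -0.22, -0.14 and 0.36 on the log2 scale in difamilast libraries 1, 2 and 3, and their median log2 fold change between difamilast and stimulated cells was -0.35. Vamp8 was called in no comparison, both in the main fit and after removal of the trend with the length of the longest transcript. Its longest transcript has 2076 bases, so Vamp8 is not among those 836 genes and the removal does not address shorter isoforms. Vamp8 has short annotated isoforms, and their part in its values was not tested.

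Vamp2, a vesicle SNARE of fast regulated exocytosis, had 113 to 166 CPM at rest and 106 to 117 with cytokines (-0.31 ± 0.13, adjusted p = 0.0727). Its adjusted p was 0.0105 without resting library 3, 0.042 with DESeq2, 0.0462 with RLE scaling and 0.0446 with no filter on low counts. Vamp3, the endosomal relative of Vamp2, had 82.2 to 113 CPM at rest, 92.4 to 102 with cytokines and 107 to 123 with difamilast, and was not called. Leaving out resting library 1 gave a call for Vamp3, higher with difamilast than at rest (adjusted p = 0.028). Vamp7, a late-endosomal and lysosomal SNARE, ranged from 11.1 to 18.9 CPM over the 9 libraries and was not called. Without resting library 1 it was called lower with difamilast than at rest (-0.52, adjusted p = 0.015). A processed pseudogene of Vamp7 exists, and how reads were divided between the copies is not given in the sources used here, so the Vamp7 level is uncertain.

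Of the 3 genes that build lysosome-related granules, 2, Lyst and Ap3b1, were called lower with cytokines, where 16.4% of all tested genes were called lower. Lyst, whose loss gives the giant granules of Chediak-Higashi syndrome, had 197, 213 and 195 CPM at rest, 81.5, 78.2 and 83.6 with cytokines and 70.9, 67.8 and 74.0 with difamilast. The 3 groups did not overlap. Lyst was 2.49-fold lower in stimulated than in resting cells (-1.31 ± 0.10, adjusted p = 5.39e-08), and its difamilast against stimulated difference was not called (-0.19 ± 0.09, adjusted p = 0.361). Ap3b1, a subunit of the adaptor complex that sorts granule membrane proteins, had 70.6 to 91.7 CPM at rest, 53.4 to 58.3 with cytokines and 55.2 to 69.3 with difamilast. It was called lower with cytokines (-0.53 ± 0.12, adjusted p = 0.00371) and with difamilast against rest (-0.36 ± 0.12, adjusted p = 0.0343). The second Ap3b1 call, the nearest to the threshold in that comparison, was lost without stimulated library 2 (adjusted p = 0.0538), stimulated library 3 (0.0548), difamilast library 2 (0.0739) or difamilast library 3 (0.135). That call was also lost in a fit of the 2 groups alone (0.0747) and with reads thinned to the shallowest library (0.0613). Hps1, a subunit of a Rab-activating complex for these organelles, had 16.8 to 26.4 CPM at rest and 14.2 to 16.2 with cytokines, without overlap and without a call (-0.45 ± 0.17, adjusted p = 0.0631). The Hps1 difference was called without resting library 2 (adjusted p = 0.0358) or resting library 3 (0.0231), and with DESeq2 (0.0367), RLE scaling (0.0458) or no filter on low counts (0.0309).

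Dense-core vesicle genes are best known from endocrine cells and neurons, and 2 of the 4 here, Ptprn and Hid1, had the largest log2 fold changes of any member with difamilast against stimulated cells. Ptprn, a transmembrane protein of dense-core vesicles with an inactive phosphatase domain, lies at chr1:75247027-75264502. It had 62, 30 and 9 reads in the resting, 32, 41 and 66 in the stimulated and 318, 312 and 187 in the difamilast libraries. In CPM these were 4.34, 1.65 and 1.14 at rest, 3.04, 1.22 and 2.14 with cytokines and 11.5, 11.4 and 8.87 with difamilast. Resting and stimulated libraries overlapped, and each difamilast library held more than any other library. Ptprn was 5.33-fold higher with difamilast than with cytokines alone (2.41 ± 0.36, adjusted p = 0.000921) and 4.29-fold higher than at rest (2.10 ± 0.37, adjusted p = 0.000449). Without resting library 1, the highest of the resting libraries for Ptprn, the log2 difference from rest was 2.82 and was again called. Between stimulated and resting cells it differed by -0.31 ± 0.41 (adjusted p = 0.605), a difference whose sign turned on leaving out resting library 1 or stimulated library 2. It overlaps an antisense gene, Gm28294, that is not used here.

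Hid1, a trans-Golgi protein required for dense-core granule formation, lies at chr11:115347707-115367756. It had 15, 30 and 7 reads at rest, 36, 82 and 46 with cytokines and 370, 352 and 185 with difamilast, or 1.05, 1.65 and 0.887 CPM, 3.43, 2.43 and 1.49 CPM, and 13.4, 12.9 and 8.77 CPM. The difamilast libraries were all above the rest, and resting and stimulated libraries overlapped. Hid1 was 5.05-fold higher with difamilast than with cytokines alone (2.34 ± 0.28, adjusted p = 0.000124) and 9.25-fold higher than at rest (3.21 ± 0.32, adjusted p = 1.65e-06). Its stimulated against resting difference, 0.87 ± 0.35, was not called (adjusted p = 0.0711) and was called without stimulated library 3 (adjusted p = 0.0202). The Ptprn and Hid1 calls between difamilast and stimulated cells held under all 17 alternative settings, with log2 fold changes of 2.08 to 2.67 for Ptprn and 2.05 to 2.57 for Hid1.

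Cadps2, which primes dense-core vesicles, was near the lower limit of detection, between 0.594 and 1.12 CPM in the 9 libraries, and was not called. Ptprn2, the paralogue of Ptprn, was the member left out by the filter. It had 1 and 2 reads in difamilast libraries 1 and 2 and 0 reads in every other library. A count of 0 allows up to 3 reads, or 0.089 to 0.38 CPM depending on the library, and covers counting error only.

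**Figure D3:**
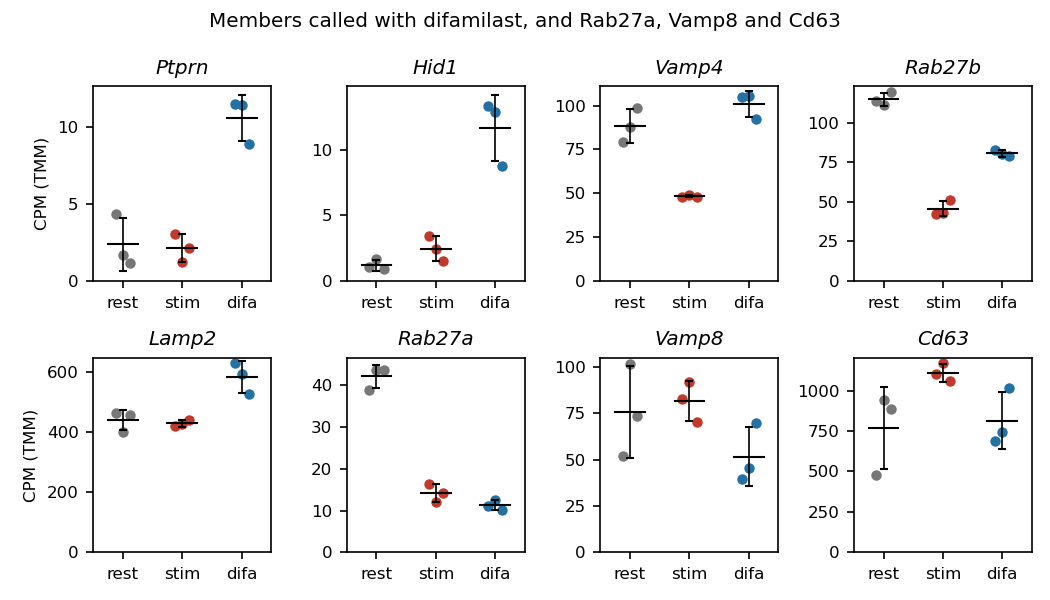
Level in each library (points, CPM after TMM scaling, y axis from 0) of the 5 members called between difamilast and stimulated cells and of Rab27a, Vamp8 and Cd63, for resting (rest), stimulated (stim) and difamilast (difa) cells; lines are means and bars are 1 SD over 3 libraries. Difamilast libraries stand above the stimulated ones for Ptprn, Hid1, Vamp4, Rab27b and Lamp2, with Ptprn between 8.87 and 11.5 CPM, and Rab27a stays low in both cytokine-treated groups.

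At the granule membrane, Lamp2 was called with difamilast, Lamp1 with cytokines and Cd63 in no comparison. Lamp2, a heavily glycosylated lysosomal membrane protein, lies at chrX:38401357-38456454 and had 464, 402 and 456 CPM at rest, 420, 427 and 442 with cytokines and 631, 594 and 526 with difamilast. The difamilast libraries were above all others. Lamp2 was 1.36-fold higher with difamilast than with cytokines alone (0.44 ± 0.10, adjusted p = 0.0231), the called member nearest the threshold. The Lamp2 call was lost without stimulated library 1 (adjusted p = 0.139), stimulated library 2 (0.127), stimulated library 3 (0.0923), difamilast library 1 (0.142) or difamilast library 2 (0.131), and when the length trend was removed (0.0624). Against resting cells Lamp2 was 1.33-fold higher with difamilast (0.41 ± 0.10, adjusted p = 0.00654), a call lost without resting library 2 (adjusted p = 0.0519).

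Lamp1, the companion of Lamp2, had 415, 295 and 296 CPM at rest, 229, 232 and 263 with cytokines and 286, 260 and 251 with difamilast. It was called lower with cytokines (-0.47 ± 0.13, adjusted p = 0.0117), a call lost without stimulated library 2 (adjusted p = 0.0552), and was the uncalled member nearest the threshold between difamilast and resting cells (-0.33 ± 0.13, adjusted p = 0.0623). That difference was called without resting library 2 (-0.46, adjusted p = 0.0214) or resting library 3 (-0.45, adjusted p = 0.0283). Resting library 1 was the highest of the 9 for Lamp1. Reads of Lamp2 per read of Lamp1 were 1.12, 1.36 and 1.54 at rest, 1.84, 1.84 and 1.68 with cytokines and 2.21, 2.28 and 2.09 with difamilast. The 3 groups did not overlap in this ratio, which is not corrected for transcript length.

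Cd63, the granule tetraspanin used at the cell surface as a marker of basophil activation, had 475, 940 and 887 CPM at rest, 1099, 1169 and 1060 with cytokines and 685, 745 and 1013 with difamilast. Resting library 1 was the lowest of the 9, and the resting and difamilast libraries overlapped. Between stimulated and resting cells Cd63 differed by 0.53 ± 0.20 (adjusted p = 0.0588), the uncalled member nearest the threshold, and it was called without resting library 2 (adjusted p = 0.0322) or difamilast library 3 (0.0405). It was also called with limma-voom (adjusted p = 0.0461), with replicate number blocked (0.0156) or with no filter on low counts (0.000164). Between difamilast and stimulated cells it differed by -0.45 ± 0.20 (adjusted p = 0.322). Genes with transcripts under 1000 bases deviated by a median of -0.34 in resting library 1, 0.29 in resting library 2 and 0.36 in difamilast library 3, and the part of transcript length in the Cd63 values was not tested.

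Srgn encodes serglycin, on whose glycosaminoglycan chains histamine and proteases are stored, and was the most abundant member. It lies at chr10:62493833-62527451 and had 1824, 3186 and 3153 CPM at rest, 12894, 13087 and 13508 with cytokines and 10505, 11473 and 13834 with difamilast. All cytokine-treated libraries were above all resting ones, and the stimulated and difamilast libraries overlapped. Srgn was 4.84-fold higher in stimulated than in resting cells (2.27 ± 0.18, adjusted p = 1.4e-07), and its difamilast against stimulated difference was -0.14 ± 0.17 (adjusted p = 0.786). Its share of the reads on the 38 members was 32.8 to 44.5% at rest, 76.2 to 76.9% with cytokines and 71.1 to 76.5% with difamilast. The other 37 members together had 3737 to 3979 CPM at rest, 4040 to 4086 with cytokines and 4209 to 4269 with difamilast, so the higher total of the set in cytokine-treated cells was almost all serglycin.

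Levels were also compared between genes on a per-length scale, as CPM per kilobase of the longest annotated transcript, where 37 members had a length and Vamp7 had none. At rest Srgn was highest at 1575 ± 450 CPM per kilobase (SD, n = 3), followed by Cd63 at 692 ± 229. Lamp1 at 150 ± 31 and Lamp2 at 122 ± 9.35 came next and overlapped in their spread, as did Lamp2 and Sytl3 at 111 ± 11.5 and Sytl3 and Rab11a at 98.6 ± 14.5. The tethering Rabs were lower, with Rab27b at 16.7 ± 0.60 and Rab27a at 13.3 ± 0.88, and Rab3d at 6.62 ± 0.60. At the low end were Ptprn at 0.668 ± 0.483, Hid1 at 0.365 ± 0.123, Exph5 at 0.261 ± 0.051 and Cadps2 at 0.166 ± 0.052. With cytokines the order changed below Cd63: Sytl3, at 145 ± 2.43, and Snap23, at 128 ± 4.49, then stood above Lamp2, at 119 ± 3.10, and Lamp1, at 108 ± 8.44 CPM per kilobase.

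**Figure D4:**
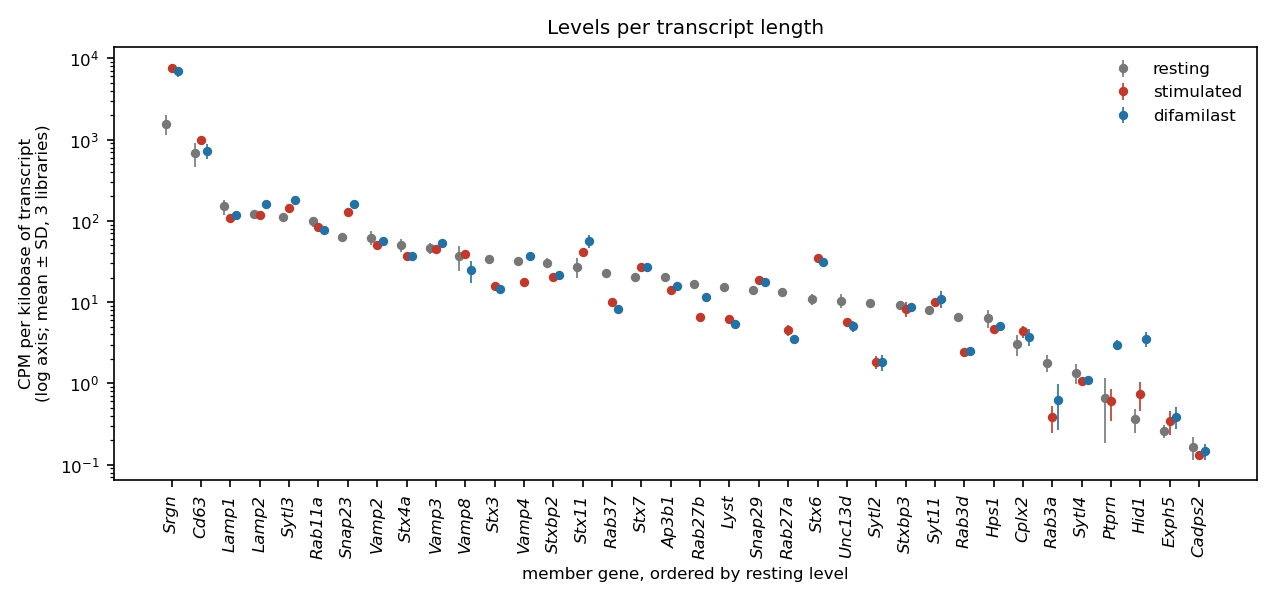
Mean level (points) with SD over 3 libraries (bars) in CPM per kilobase of transcript on a log axis, for 36 members ordered from left to right by their resting level, in resting (grey), stimulated (red) and difamilast (blue) cells; Ptprn2, at 0 in most libraries, and Vamp7, with no annotated length, are left out. Srgn and Cd63 lie above 100 CPM per kilobase in each group, and Ptprn and Hid1 are the members at the low end whose blue points stand apart.

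Beyond the 38 members, 222 other genes of the same families were listed, and 189 passed the filter. With cytokines 27 were called higher and 44 lower (37.6%, against 31.7% of all tested genes). The lysosome-related organelle biogenesis list had 9 of 26 genes called, each lower (34.6% called, near the 31.7% over all tested genes, of which 16.4% were lower), led by Nbeal2, a granule protein mutated in grey platelet syndrome, which was 3.68-fold lower (adjusted p = 6.25e-07). The granule membrane and matrix list had 6 higher and 10 lower of 21. Its tetraspanins Cd53 and Cd9 were 3.09-fold and 2.26-fold higher, and Ndst2, which sulphates the heparin chains of granule proteoglycans, was 4.24-fold lower. Among the dense-core vesicle genes 4 of 17 were called, each higher (23.5% called, below the 31.7% over all tested genes, where 15.3% were called higher). They included Slc18a2, the vesicular monoamine transporter that loads histamine. Slc18a2 had 204 ± 13.7 CPM (SD, n = 3) at rest and 525 ± 14.4 with cytokines (2.58-fold, adjusted p = 3.04e-08). Of 46 other Rab GTPases 7 were higher and 7 lower, and of 24 other SNAREs 4 were higher and 6 lower. The Rab effector list had 4 higher and 6 lower of 20, with Tbc1d10c, a Rab GTPase-activating protein, 5.82-fold lower (adjusted p = 1.3e-09) and Madd, an exchange factor for Rab3 and Rab27, 2.61-fold lower (adjusted p = 2.97e-07).

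With difamilast, 11 of the 189 were called against stimulated cells (5.82%, against 3.44% of all tested genes), 9 higher and 2 lower. Vgf, a granin-like dense-core vesicle protein, had a mean of 1.69 ± 0.386 CPM at rest, 5.49 ± 0.832 with cytokines and 19.9 ± 3.57 with difamilast (3.56-fold against stimulated cells, adjusted p = 3.17e-05). Rab38, a Rab of lysosome-related organelles, had 44.5 ± 2.10 CPM with cytokines and 105 ± 19.2 with difamilast (2.37-fold higher, adjusted p = 4.69e-05). Rab31, an endosomal Rab, had 152 ± 6.45 CPM with cytokines and 96.9 ± 2.58 with difamilast (1.57-fold lower, adjusted p = 0.000836). Madd was 1.49-fold higher (adjusted p = 0.00993), a call lost without stimulated library 1 (adjusted p = 0.0695), stimulated library 2 (0.0813) or difamilast library 2 (0.0603). By list, the 11 calls were 6 of 46 Rab GTPases, 2 of 21 granule membrane genes, 1 of 24 SNAREs, 1 of 20 Rab effectors and 1 of 17 dense-core vesicle genes. Vgf, Rab38 and Rab31 were called under each of the 17 alternative settings. Cd81 was called in 13 of them, Rab4a and Stx5a in 12, Rab21 in 11 and Cd82 in 7. Between difamilast and resting cells 30 of the 189 were higher and 43 lower (38.6%, against 32.8% of all tested genes).

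**Figure D5:**
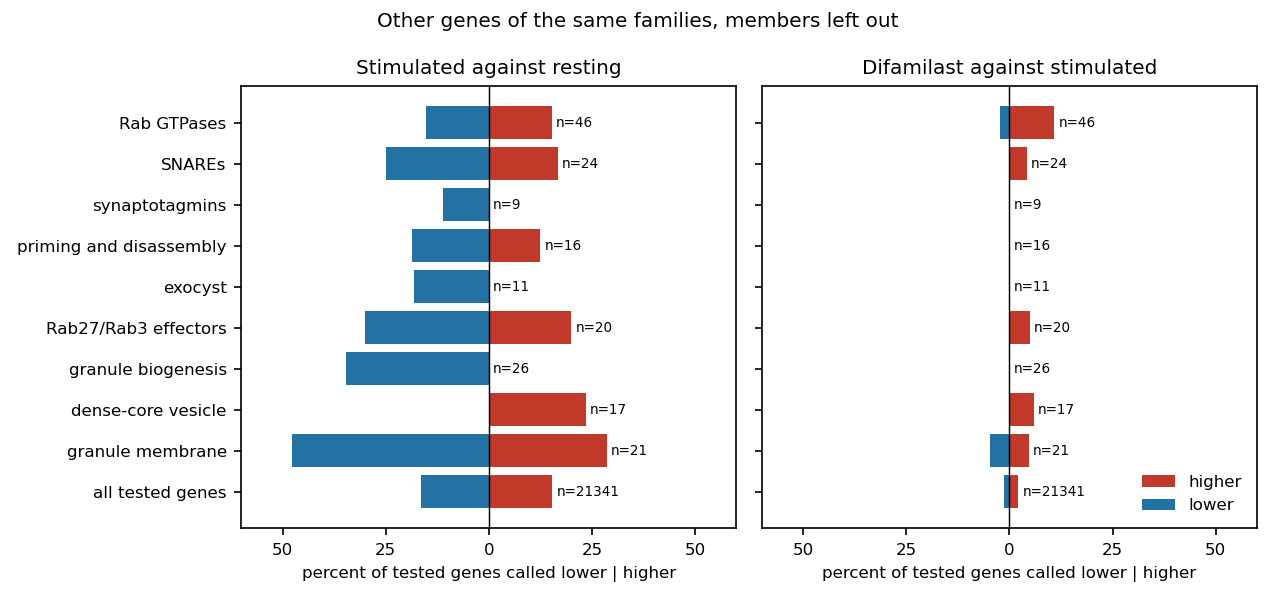
Percent of tested genes called higher (red, to the right of 0) or lower (blue, to the left of 0) in each family list with the members left out, and over all 21341 tested genes in the lowest bar, for stimulated against resting cells on the left and difamilast against stimulated cells on the right; n is the number of genes tested. On the left panel the granule biogenesis, synaptotagmin and exocyst bars extend only to the left and the dense-core vesicle bar only to the right. Most right-panel bars are short or absent.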

How the data were processed

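Poly(A) RNA of 9 basophil libraries in 3 groups was amplified by the TAS-Seq workflow and sequenced, per the labels' protocols. The labels mention no molecular identifiers, so counts may include amplification copies. The authors deposited 1 table of raw read counts per gene symbol. Cutadapt 4.1, Bowtie2 2.4.5 and GRCm38 are named, without their order, in the submitters' processing notes. Counting tool, annotation and strandedness: not given in the sources used here.

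The 38 members, the family lists and the tests were chosen with earlier results of these data known. Genes passing edgeR's filterByExpr (minimum count 10, total 15) numbered 21341 of 35673. They were scaled by TMM and fitted with the quasi-likelihood test (edgeR 4.0.16, R 4.3.3) on all 9 libraries with group as the only term. Called means an adjusted p (Benjamini-Hochberg) under 0.05. The standard error is the log2 fold change divided by the square root of the F statistic. On simulated counts for difamilast against stimulated cells (21341 genes), 67 genes were changed 1.5-fold, 67 genes 2-fold and 66 genes 4-fold. Of these, 26.9%, 95.5% and 100% were recovered, with 7 wrong calls.

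Per-library values are given for members called with at least a 2-fold change in any comparison and for Rab27a, Rab27b, Unc13d, Stxbp2, Stx11, Snap23, Vamp8 and Cd63. Other family genes are named up to 4 per list and comparison. Positions and transcript lengths (the longest basic transcript) come from GENCODE vM21, and promoters from RefSeq (GRCm38.p6). No 2 libraries of a group agreed within sampling noise. Each result was recomputed without the filter, with RLE scaling, in 2-group fits, with replicate number blocked, with DESeq2 1.42.0 or limma-voom (limma 3.58.1), and after removal of a length trend, thinning to the shallowest library, or leaving out each library in turn.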

Additional observations from a re-analysis of the deposited data

How the results depend on the processing

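Under the 17 alternatives, the 142 single-gene fold changes picked for this check gave 2261 values on the same side of 0 and of the threshold, 95 that lost a call, 45 that gained one and 12 that turned sign. The 12 belong to 4 uncalled differences: between stimulated and resting cells Ptprn (-0.64 to 0.39 on leaving out a library, 0.0475 with the length trend removed, 0.0696 thinned), and between difamilast and stimulated cells Sytl2 (-0.22 to 0.0933, and 0.37 thinned), Stxbp3 (-0.0938 to 0.14) and Stxbp2 (-0.0034 to 0.12). Uncalled differences outside the 142 turned sign as well. Among them were Stx7 (in 6 settings), Rab3d (3) and Stx4a (3) between difamilast and stimulated cells, and Vamp3 (3) between stimulated and resting cells. The number of members called between difamilast and stimulated cells, 5, became 8 with no filter on low counts, where Vamp8 and Cd63 were called lower and Stx11 higher (adjusted p = 0.000217, 0.0114 and 0.00497), and 8 in the fit of the 2 groups alone. Over all genes, the 471 higher and 264 lower calls of that comparison became 689 and 662 with no filter and 831 and 842 in the 2-group fit. They were 870 and 823 without resting library 1, 540 and 598 without difamilast library 3, 270 and 109, 264 and 123, and 303 and 143 without stimulated libraries 1, 2 and 3, and 289 and 114 and 258 and 89 without difamilast libraries 1 and 2. Leaving out each library gave 18 to 23 members for stimulated against resting (21 in the full fit), 4 to 8 for difamilast against stimulated, with 8 without resting library 1 or difamilast library 3, and 20 to 25 for difamilast against resting (23). For the other family genes it gave 51 to 76 (71), 4 to 16 (11) and 59 to 77 (73), with 4 without stimulated library 1, stimulated library 2 or difamilast library 2 and 7 without difamilast library 1. A pairing of the libraries by replicate number was not seen, and 3 libraries a group are too few to exclude one. Same-numbered deviations correlated at -0.40 to 0.42 over 8867 genes, and different-numbered ones at -0.53 to 0.59. With the number as a replicate block, 23, 5 and 24 members and 71, 10 and 72 other genes were called in the 3 comparisons, and Cd63 (0.59, adjusted p = 0.0156) and Hid1 (0.95, adjusted p = 0.0199) were called between stimulated and resting cells. Depth limits Rab3a, Exph5, Cadps2, Ptprn and Hid1 most, which had fewer than 100 reads in every resting and stimulated library.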
